A study of Mus musculus with 81 samples.

Results

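The genes described here encode the voltage-gated sodium and calcium channels of the mouse and their auxiliary subunits, measured in dorsal area CA1 of the hippocampus. They were taken by name alone. Every symbol beginning with Cacna, Cacnb or Cacng (with 1 exception) was included, and so was every symbol made of Scn, a number and the letter a or b. This gave 39 genes, all of which were present in each count table: of 55536 genes in the depletion experiment, 20801 in the training experiment and 24500 in intact mice. The study asked what the histone variants macroH2A1 (mH2A1, encoded by H2afy) and macroH2A2 (mH2A2, encoded by H2afy2) do in the hippocampus, and this series held 81 samples, of which 26 were RNA libraries and 55 were chromatin immunoprecipitation (ChIP) or input samples.

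All mice were male C57BL/6J, about 9 to 12 weeks old. In the depletion experiment, 3 mice received shH2afy, 3 received shH2afy2 and 3 received a scrambled hairpin (shScr), each carried by an AAV-DJ vector injected into dorsal CA1 on both sides. The U6 promoter drove the hairpin and CMV drove GFP, and neither promoter is restricted to neurons. Tissue was taken 2 weeks later. In the training experiment the same shH2afy and shScr viruses were combined with contextual fear conditioning (3 foot shocks of 0.5 mA, tissue taken 1 h later) or with the home cage, giving 4 groups of 3 mice: shH2afy trained, shScr trained, shH2afy untrained and shScr untrained. Intact mice, which had no surgery, were trained (n = 2, tissue taken 1 h later) or untrained (n = 3). The ChIP samples came from trained or untrained mice without virus, in sets named by the time between training and tissue collection. For mH2A1 there were 30 min sets (2 trained and 3 untrained libraries), 1 h sets (2 libraries each) and 6 h sets (5 libraries each). For mH2A2 there were 30 min sets (2 trained and 3 untrained libraries) and 1 h sets (3 libraries each). Each RNA library was taken to come from a separate mouse, with replicate numbers given within each group. Libraries held 9954415 to 18750763 counts in the depletion experiment, 81351559 to 92226421 counts in the training experiment and 48769140 to 58655523 counts in intact mice.

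The level of the targeted transcript did not follow every label. In the depletion experiment H2afy stood at 39.2 to 44.9 counts per 1000000 (CPM) in shH2afy mice against 52.7 to 60.8 CPM in shScr mice (log2 fold change -0.37 ± 0.10, SE; edgeR adjusted p = 0.031). H2afy2 stood at 7.57 to 13.2 CPM in shH2afy2 mice against 18.3 to 18.9 CPM in shScr mice (-0.95 ± 0.22, edgeR adjusted p = 0.0907). Both groups were below their controls without overlap, though neither fold change passed the threshold of 0.01. In the training experiment, whose counts included introns, H2afy was not lower in libraries labelled shH2afy. In untrained mice it was at 87.1 to 88.8 CPM there against 78.3 to 82.2 CPM in shScr libraries (0.13 ± 0.05, edgeR adjusted p = 0.0868). In trained mice it was at 88.5 to 99.5 CPM there against 80.4 to 86.7 CPM in shScr libraries (0.16 ± 0.06, edgeR adjusted p = 0.0793). Both ranges lay above shScr, though neither fold change passed the threshold of 0.05. Because H2afy was not lower, the text writes "libraries labelled shH2afy" for that experiment, and any direction drawn from them carries that limit.

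Voltage-gated sodium channels open when the membrane depolarises and carry the upstroke of the action potential, and voltage-gated calcium channels turn that depolarisation into calcium entry, which drives transmitter release, dendritic spikes and signalling to the nucleus. Each channel has a pore-forming alpha subunit, which sets its type, and auxiliary subunits, which carry it to the membrane and tune its gating. Several proteins named as calcium channel gamma subunits, Cacng2 (stargazin), Cacng3, Cacng4, Cacng7 and Cacng8, are better known in neurons as partners of AMPA-type glutamate receptors. In the hippocampus the main sodium channel pores are Scn1a, Scn2a, Scn3a and Scn8a, of which Scn1a is prominent in inhibitory neurons and Scn2a and Scn8a at the axon initial segment of excitatory neurons.

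Of the 39 genes, 6 were lower in shH2afy libraries in each of the 3 comparisons with shScr that used different mice, namely Cacna1i, Cacna2d3, Cacnb1, Cacng3, Scn1a and Scn2b. The promoters of 5 of them are shown because these are genes on which the results below turn. Each window runs from 250 bases before to 50 bases after the start of transcription (RefSeq, GRCm38.p6), 5′ to 3′ on the strand of the gene, and capitals mark GGGCGG on either strand, the GC box recognised by Sp1-type factors.
Cacna1i promoter, chr15:80286988-80287287, plus strand: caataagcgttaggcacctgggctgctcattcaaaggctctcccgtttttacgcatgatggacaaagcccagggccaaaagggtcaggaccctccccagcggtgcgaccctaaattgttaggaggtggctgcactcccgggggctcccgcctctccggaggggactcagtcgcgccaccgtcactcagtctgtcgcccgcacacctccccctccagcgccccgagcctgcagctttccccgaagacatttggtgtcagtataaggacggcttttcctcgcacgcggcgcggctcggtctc
Cacna2d3 promoter, chr14:29721815-29722114, minus strand: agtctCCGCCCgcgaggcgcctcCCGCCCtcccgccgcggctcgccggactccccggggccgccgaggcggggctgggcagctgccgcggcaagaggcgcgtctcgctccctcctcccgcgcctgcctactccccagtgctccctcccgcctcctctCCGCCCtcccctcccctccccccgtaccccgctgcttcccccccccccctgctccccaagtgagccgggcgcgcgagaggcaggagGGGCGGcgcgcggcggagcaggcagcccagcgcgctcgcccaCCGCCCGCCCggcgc
Cacnb1 promoter, chr11:98022578-98022877, minus strand: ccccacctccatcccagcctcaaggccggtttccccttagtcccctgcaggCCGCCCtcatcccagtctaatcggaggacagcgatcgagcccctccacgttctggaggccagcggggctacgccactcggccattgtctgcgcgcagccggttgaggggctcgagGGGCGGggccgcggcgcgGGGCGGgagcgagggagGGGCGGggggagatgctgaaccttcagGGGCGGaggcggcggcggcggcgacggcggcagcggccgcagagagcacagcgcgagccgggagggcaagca
Scn1a promoter, chr2:66440788-66441087, minus strand: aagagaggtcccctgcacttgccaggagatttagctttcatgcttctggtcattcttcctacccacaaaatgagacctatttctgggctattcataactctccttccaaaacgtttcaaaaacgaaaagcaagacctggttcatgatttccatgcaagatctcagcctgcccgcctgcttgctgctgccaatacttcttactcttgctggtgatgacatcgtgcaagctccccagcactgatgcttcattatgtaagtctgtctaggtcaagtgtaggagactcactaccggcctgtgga
Scn2b promoter, chr9:45117626-45117925, plus strand: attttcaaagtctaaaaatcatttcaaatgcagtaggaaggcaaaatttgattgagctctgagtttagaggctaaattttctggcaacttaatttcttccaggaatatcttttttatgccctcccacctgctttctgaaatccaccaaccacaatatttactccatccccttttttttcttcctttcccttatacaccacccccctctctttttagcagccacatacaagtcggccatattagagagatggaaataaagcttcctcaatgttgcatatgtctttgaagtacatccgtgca
The 5 windows had little letter composition in common. G and C made up 81.3% of the Cacna2d3 window and 73.7% of the Cacnb1 window but 47.3% of the Scn1a window and 38.3% of the Scn2b window. The Cacna2d3 window held 6 matches to GGGCGG and the Cacnb1 window 5, counting matches that overlap, while these letters were not in the other 3 windows. Among the 39 windows that RefSeq lists for 29 of the channel genes, 15 (38.5%) held GGGCGG, against 35.7% of all 32851 windows. TATAAA, the TATA box, was in 2 of the 39 (5.13%), against 13.6% of all windows. The E-box CACGTG was in 0 of the 39 (7.15% of all windows), and TTCAGCACC, the first part of the site of the neuronal repressor REST, was in 0 (0.371% of all). A match is a string of letters and not a bound site.

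Before any comparison, the channel genes spanned a wide range of expression. Levels are given here as CPM per kilobase of exon (GENCODE M21), in shScr mice of the depletion experiment and in intact untrained mice (mean ± SD, n = 3 each). Some auxiliary subunits stood high in shScr mice, among them Cacng8 (102 ± 41), Scn2b (81.0 ± 5.7), Scn3b (68.3 ± 28), Cacng7 (58.9 ± 3.0) and Cacnb3 (50.9 ± 2.6). Of those named, Scn3b overlapped each of the others within 1 SD, and Cacng8 also overlapped Scn2b and Cacng7. The pores came lower than these, and so did other auxiliary subunits. Among the latter, Cacna2d2 and Cacnb2 lay below Scn2a, Scn8a and Scn1a. Scn2a at 30.4 ± 2.2 and Scn8a at 26.3 ± 3.2 led the sodium channel pores and overlapped within 1 SD. Scn1a followed at 13.5 ± 1.8, and Scn3a, the pore that predominates before birth, was at 4.50 ± 0.88. Among calcium channel pores, Cacna1a (P/Q type, 12.8 ± 2.6), Cacna1e (R type, 12.7 ± 0.44), Cacna1h (T type, 12.0 ± 1.4), Cacna1b (N type, 10.9 ± 0.84) and Cacna1i (T type, 10.5 ± 1.7) overlapped within 1 SD, except that Cacna1e lay above Cacna1b and Cacna1i. In intact untrained mice the means of these stood the other way, with Cacna1e at 10.0 ± 2.0, Cacna1b at 12.5 ± 1.2 and Cacna1i at 12.2 ± 0.13. There Cacna1e and Cacna1b overlapped within 1 SD. In shScr mice Cacna1g (T type, 5.35 ± 0.73), Cacna1c (L type, 3.10 ± 1.2) and Cacna1d (L type, 2.83 ± 0.067) were lower. In intact untrained mice 11 genes were under 1 CPM per kilobase. Among these were the skeletal muscle pores Scn4a and Cacna1s, the muscle subunit Cacng1, the retinal pore Cacna1f, the sensory-neuron pores Scn9a, Scn10a and Scn11a, the atypical sodium channel Scn7a, and Cacna2d4 and Cacng6. In the depletion experiment 6 of the 39 (Cacna1f, Cacna1s, Cacng1, Scn4a, Scn10a and Scn11a) had too few counts to be tested, and 33 passed.

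Channel transcripts were lower in shH2afy than in shScr mice of the depletion experiment for part of the genes, and none of the 33 that could be tested was called higher. In shH2afy mice 8 subunits fell past the threshold, among them the pores Scn1a and Cacna1i, the sodium channel beta subunit Scn2b, the calcium channel beta subunits Cacnb1 and Cacnb4, the alpha2delta subunit Cacna2d3 and the gamma subunit Cacng3. They fell to between 44.1% (Cacna1i) and 58.6% (Cacna2d3) of the shScr level. In edgeR's quasi-likelihood test with Benjamini-Hochberg adjustment over 16179 genes, 8 of 33 were lower and 0 higher at an adjusted p under 0.01, where 4.47% of all genes were lower and 12.6% higher. The median log2 fold change of the 33 was -0.59, that of all genes 0.0072, and 27 of the 33 were negative. With DESeq2 14 of the 33 passed, all lower, where 21.3% of all genes passed in either direction. Members whose 3 shH2afy values all lay below all 3 shScr values numbered 19, against 26.1% of all genes. All the channel genes together took 0.295 to 0.414% of counts in shH2afy mice against 0.473 to 0.504% in shScr mice.

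The T-type pore Cacna1i, which supports burst firing and opens at low voltages, had the largest fall among those past the threshold. It stood at 37.9, 46.7 and 45.7 CPM in shH2afy mice against 110, 84.0 and 116 CPM in shScr mice (log2 fold change -1.18 ± 0.15, SE; edgeR adjusted p = 0.00138). Every shH2afy value was below every shScr value. Cacna1i is also on a list that the study chose on these samples, so its direction here is not independent evidence. Its relatives did not move in the same way: Cacna1g stood at 50.9, 34.6 and 40.1 CPM in shH2afy mice against 61.1, 46.4 and 55.1 CPM in shScr mice (edgeR adjusted p = 0.205), with overlapping ranges, and Cacna1h had a log2 fold change of 0.11.

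**Figure D1:**
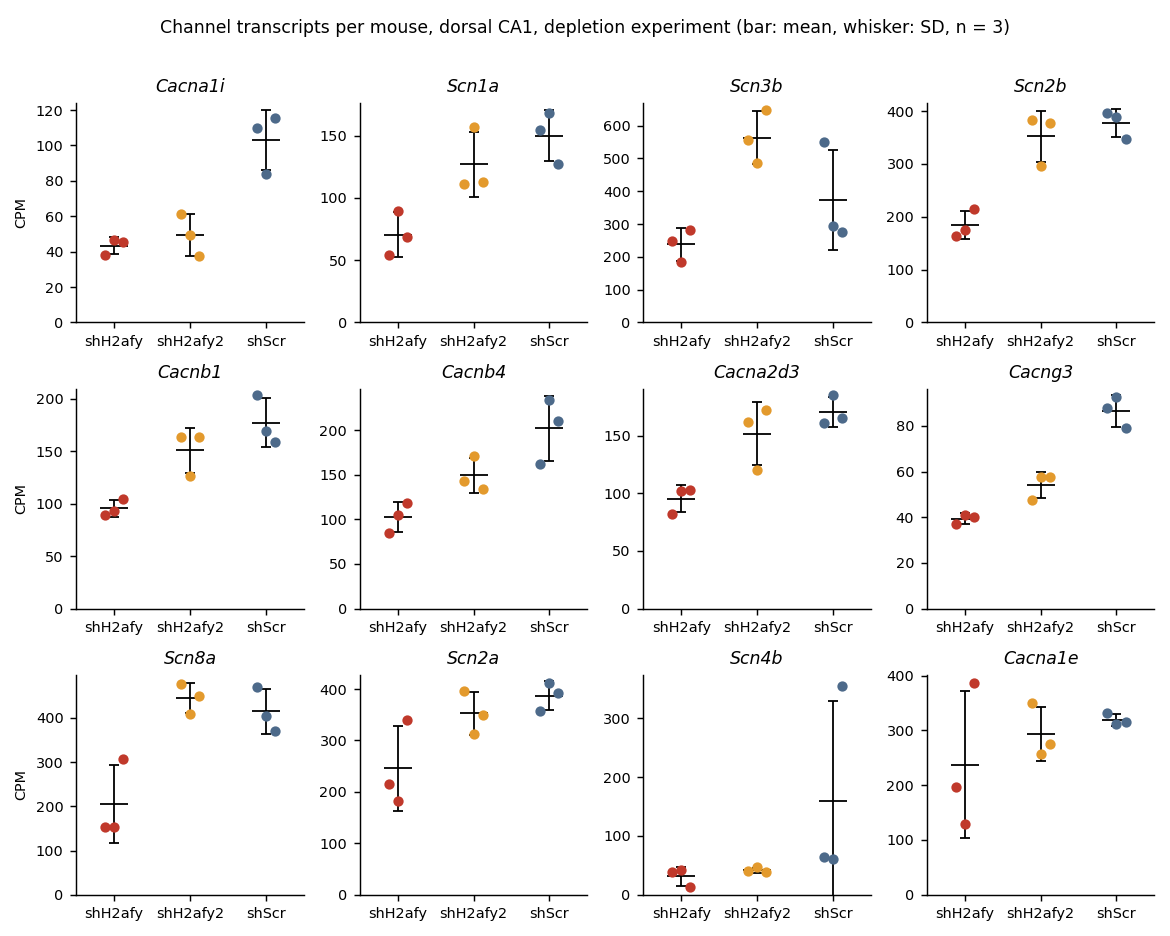
CPM of 12 channel genes in each mouse of the depletion experiment, with shH2afy, shH2afy2 and shScr from left to right in each panel (points: mice, bars: mean, whiskers: SD, n = 3 each). The shH2afy points of Cacna1i (37.9 to 46.7 CPM) lie below the shScr points (84.0 to 116 CPM), and 1 shScr point of Scn4b (356 CPM) lies far above the others.

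The sodium channel genes fell in both classes of subunit, with 1 of 7 tested pores and 2 of 4 beta subunits past the threshold, and all 11 log2 fold changes were negative. Scn1a, the pore whose loss causes Dravet epilepsy in humans, stood at 54.0, 89.2 and 68.5 CPM in shH2afy mice against 155, 168 and 128 CPM in shScr mice (-1.02 ± 0.20, edgeR adjusted p = 0.007). Scn2b, which is linked to the pore by a disulphide bond, stood at 163, 176 and 214 CPM in shH2afy mice against 396, 388 and 347 CPM in shScr mice (-0.97 ± 0.13, edgeR adjusted p = 0.00195). In both genes the shH2afy and shScr values did not overlap.

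The remaining sodium channel pores of the brain were more variable, and shH2afy replicate 3 differed from the other two. Scn8a stood at 154, 153 and 307 CPM in shH2afy mice against 470, 404 and 371 CPM in shScr mice (-0.96 ± 0.28, edgeR adjusted p = 0.0343). Scn2a stood at 216, 182 and 339 CPM in shH2afy mice against 358, 412 and 391 CPM in shScr mice (-0.59, edgeR adjusted p = 0.0821). Both ranges lay below shScr, without passing 0.01. Scn3a stood at 55.4, 26.0 and 72.6 CPM in shH2afy mice against 43.4, 61.5 and 63.3 CPM in shScr mice, with overlapping ranges (-0.06). Scn4b, the beta subunit tied to resurgent sodium current, had the largest log2 fold change of all 33 (-2.29 ± 0.78, edgeR adjusted p = 0.0582), but it rested on shScr replicate 3: values were 38.7, 41.5 and 13.3 CPM in shH2afy mice against 63.9, 60.2 and 356 CPM in shScr mice, and without that replicate the log2 fold change was -0.99.

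Among auxiliary subunits of calcium channels, 4 of 14 that could be tested (4 alpha2delta, 4 beta and 6 gamma) fell past the threshold. Cacng3, an AMPA receptor partner, had the smallest adjusted p of the channel genes: 36.9, 41.2 and 40.3 CPM in shH2afy mice against 87.7, 92.8 and 79.2 CPM in shScr mice (-1.07 ± 0.10, edgeR adjusted p = 0.00045). The beta subunits, which bind the pore inside the cell and bring it to the membrane, were all negative. Cacnb1 stood at 89.1, 92.8 and 105 CPM in shH2afy mice against 204, 169 and 159 CPM in shScr mice (-0.83 ± 0.13, edgeR adjusted p = 0.00281). Cacnb4 stood at 84.3, 105 and 118 CPM in shH2afy mice against 162, 234 and 210 CPM in shScr mice (-0.91 ± 0.18, edgeR adjusted p = 0.00784). Cacnb3 and Cacnb2 had log2 fold changes of -0.50 and -0.63 (edgeR adjusted p = 0.0137 and 0.0268), short of the threshold. Cacna2d3, an extracellular alpha2delta subunit that raises channel density at the membrane, stood at 81.7, 102 and 103 CPM in shH2afy mice against 161, 185 and 165 CPM in shScr mice (-0.77 ± 0.13, edgeR adjusted p = 0.00383). In all 4 of the genes past the threshold the groups did not overlap.

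The high-voltage calcium channel pores had the median log2 fold change nearest 0 of the 7 kinds of subunit (-0.28), and 0 of 5 tested passed the threshold. Cacna1a, the P/Q-type pore of presynaptic terminals, stood at 100, 100 and 147 CPM in shH2afy mice against 145, 177 and 118 CPM in shScr mice (-0.28, edgeR adjusted p = 0.333). Cacna1e, the R-type pore, stood at 196, 128 and 387 CPM in shH2afy mice against 332, 311 and 315 CPM in shScr mice (-0.36, edgeR adjusted p = 0.467). Cacna1c, the main L-type pore of the brain, stood at 58.8, 35.8 and 95.0 CPM in shH2afy mice against 37.1, 81.5 and 78.6 CPM in shScr mice (0.01). The shH2afy values of Cacna1e and Cacna1c lay both below and above the shScr values, while those of Cacna1a lay below or within them. The only positive log2 fold changes over the 33 were those of Cacna2d4 (0.78 ± 0.34, edgeR adjusted p = 0.12), Cacna1d (0.25), Cacna1h (0.11), Cacng4, Cacng6 and Cacna1c, and none passed the threshold.

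**Figure D2:**
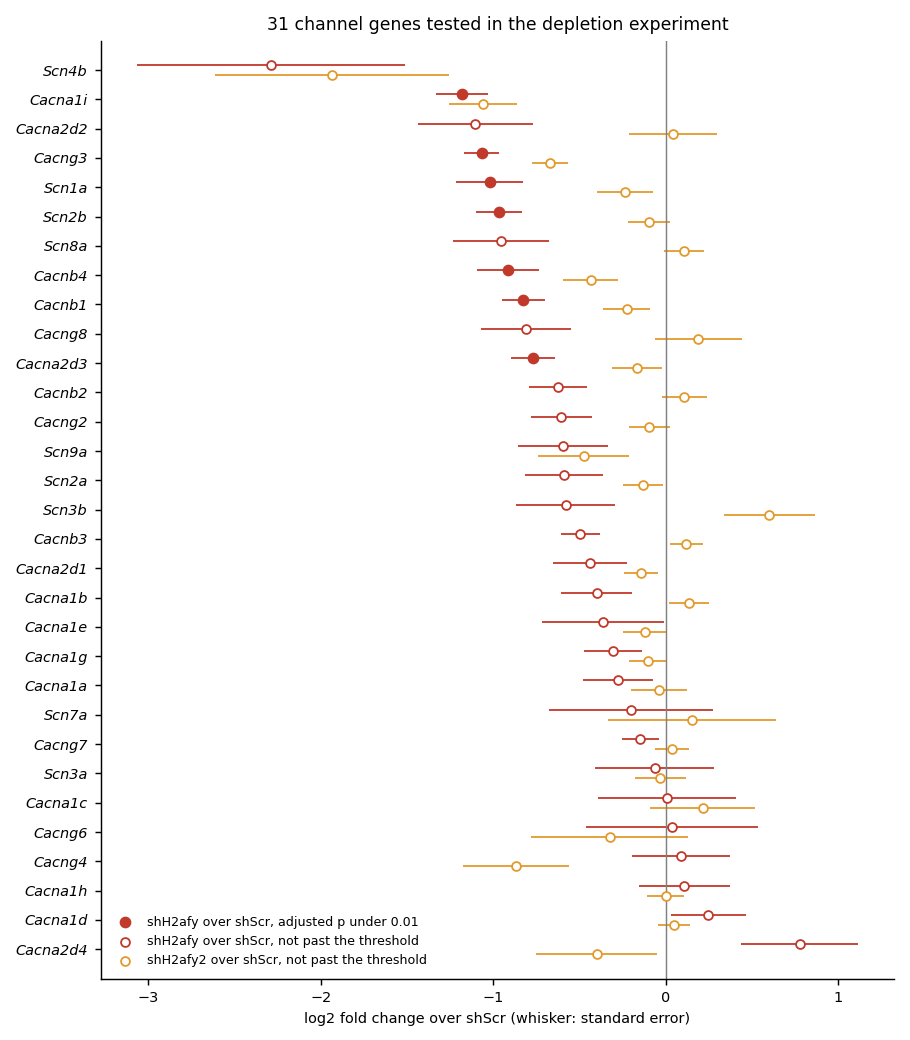
Log2 fold change over shScr of 31 tested channel genes in shH2afy mice (red) and shH2afy2 mice (orange), with standard errors as whiskers and filled points for an edgeR adjusted p under 0.01. The 7 filled points, from Cacna1i at -1.18 to Cacna2d3 at -0.77, are all of shH2afy mice.

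The number of genes past the threshold depended on which mice were included. With any 1 of the 6 mice left out, Cacna1i and Cacng3 passed in each of the 6 fits, Scn2b in 3, Cacnb1 and Cacnb4 in 2 and Cacna2d3 and Scn1a in 1, and the largest adjusted p any of the 8 then had was 0.034 (Cacnb4). The count was 2 without shH2afy replicate 1 or shScr replicate 2, 3 without shScr replicate 1, 4 without shScr replicate 3, 5 without shH2afy replicate 2 and 12 without shH2afy replicate 3. A fold above 2 was reached by 4 of the 8, Cacna1i, Cacng3 and Scn1a among them, against 1.2% of all genes lower by that rule. The same libraries differed in cell type markers, set here beside the 4.47% of all genes called lower and the 12.6% called higher. The summed level of 12 microglia and macrophage markers was 1920 to 4226 CPM in shH2afy mice against 267 to 428 CPM in shScr mice, and 12 of 12 were called higher. The summed level of 12 general neuronal markers was 4590 to 6393 CPM in shH2afy mice against 8598 to 10373 CPM in shScr mice, with 4 of 12 called lower and a median log2 fold change of -0.71. Markers of inhibitory neurons summed to 852 to 1083 CPM in shH2afy mice against 1621 to 1785 CPM in shScr mice, with 9 of 14 called lower. None of the microglial and general neuronal markers was at 0 in any library, and at most 1 of the 14 inhibitory markers was at 0 in a library. Markers of T and B cells summed to 498, 726 and 8.01 CPM in the 3 shH2afy mice, against 2.28, 2.18 and 23.4 CPM in shScr mice. The part of these cell type differences in the channel results was not tested, and in whole tissue fewer neurons and less channel RNA per neuron cannot be told apart.

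Set against shScr mice, shH2afy2 mice had no channel gene past the threshold. By edgeR 0 of 33 were called, as were 0 of all 15609 genes tested (0%), although 5 of the 33 reached an unadjusted p under 0.05. With DESeq2 the number was 2, Cacna1i and Cacng3, against 2.85% of all genes. The median log2 fold change of the 33 was -0.09. The 4 genes with all shH2afy2 values below all shScr values (12.7% of all genes) were Cacna1i, Cacng3, Cacng4 and Scn4b. Cacna1i stood at 61.3, 49.4 and 37.4 CPM in shH2afy2 mice, against the 84.0 to 116 CPM of shScr mice (-1.06 ± 0.20, edgeR adjusted p = 0.0752). Cacng3 stood at 47.8, 57.6 and 57.5 CPM in shH2afy2 mice, against 79.2 to 92.8 CPM in shScr mice (-0.67 ± 0.10, edgeR adjusted p = 0.0714). This comparison shares its shScr mice with the shH2afy comparison, so the values of Cacna1i and Cacng3 in the 2 depletions are not separate observations. For Scn8a shH2afy2 mice had 476, 408 and 450 CPM against 371 to 470 CPM in shScr mice, with overlap. Microglial markers summed to 419 to 935 CPM and neuronal markers to 8034 to 9902 CPM in shH2afy2 mice, and edgeR called 0 markers of either list, with 6 and 2 of 12 at an unadjusted p under 0.05.

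Set directly against shH2afy2 mice, shH2afy mice had 7 channel genes lower (6.74% of all genes) and 1 higher (9.83% of all genes), with a median log2 fold change of -0.46 over the 33. The sodium channel beta subunits Scn2b and Scn3b were among the 7. Scn2b had a log2 fold change of -0.93 (edgeR adjusted p = 0.00508). Scn3b stood at 249, 183 and 281 CPM in shH2afy mice against 556, 486 and 647 CPM in shH2afy2 mice (-1.24 ± 0.19, edgeR adjusted p = 0.0039), although in shScr mice it ranged from 275 to 549 CPM. The AMPA receptor partner Cacng8 stood at 114, 127 and 148 CPM in shH2afy mice against 291, 230 and 292 CPM in shH2afy2 mice (-1.06 ± 0.15, edgeR adjusted p = 0.00314). Cacnb1, Cacnb2 and Cacnb3 were lower by between -0.66 and -0.79 on the log2 scale. The gene that was higher, Cacng4, stood at 44.0, 42.6 and 37.3 CPM in shH2afy mice against 27.1, 21.1 and 18.6 CPM in shH2afy2 mice (0.90 ± 0.16, edgeR adjusted p = 0.00583), and its shScr values of 30.2, 30.1 and 62.2 CPM lay on either side of the shH2afy values and above the shH2afy2 values. With DESeq2 15 passed (23.3% of all genes). The count of 8 was 0 without shH2afy replicate 1, shH2afy2 replicate 1 or shH2afy2 replicate 3, 2 without shH2afy replicate 2 and 13 without shH2afy replicate 3.

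In the training experiment the channel genes were again lower in the libraries labelled shH2afy, in untrained as in trained mice. These libraries were made by ribosomal RNA depletion and counted over whole genes with introns, so their levels cannot be set beside those above. In untrained mice edgeR called 22 of 37 tested genes lower (21.7% of all genes) and 1 higher (26.2% of all genes) at an adjusted p under 0.05, with a median log2 fold change of -0.49. In trained mice it called 22 of 36 lower (21.7% of all genes) and 0 higher (24.2% of all genes), with a median of -0.57. The channel genes took 0.688 to 0.787% of counts in untrained libraries labelled shH2afy against 0.965 to 0.992% in untrained shScr libraries, and 0.693 to 0.776% in trained libraries labelled shH2afy against 0.951 to 1.03% in trained shScr libraries.

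Scn8a, the pore that carries most persistent and nodal sodium current, had the smallest adjusted p among channel genes in both. It stood at 420, 393 and 458 CPM in trained libraries labelled shH2afy against 784, 719 and 727 CPM in trained shScr libraries (-0.81 ± 0.08, edgeR adjusted p = 0.00124). In untrained mice it stood at 449, 377 and 405 CPM in libraries labelled shH2afy against 754, 799 and 732 CPM in shScr libraries (-0.89 ± 0.09, edgeR adjusted p = 0.000294). In neither arm did a value of 1 group reach the other. Scn2a fell to 248, 258 and 237 CPM in untrained libraries labelled shH2afy, against 369, 360 and 387 CPM in shScr libraries (-0.58 ± 0.07, edgeR adjusted p = 0.000515). Scn1a stood at 110, 116 and 91.4 CPM in untrained libraries labelled shH2afy against 175, 172 and 175 CPM in untrained shScr libraries (-0.72 ± 0.09, edgeR adjusted p = 0.000862). In trained mice it stood at 104, 126 and 101 CPM in libraries labelled shH2afy against 176, 123 and 197 CPM in shScr libraries (-0.59 ± 0.18, edgeR adjusted p = 0.0389), and there the ranges overlapped. Scn3a passed in untrained mice (-0.41 ± 0.11, edgeR adjusted p = 0.0171) and not in trained mice (-0.25 ± 0.19, edgeR adjusted p = 0.318).

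Calcium channel pores of the high-voltage class, which had not passed in the depletion experiment, were called lower here in 4 of 7 cases in each arm, and 1, Cacna1s, was called higher in untrained mice. Cacna1a stood at 448, 461 and 448 CPM in trained libraries labelled shH2afy against 773, 663 and 633 CPM in shScr libraries (-0.61 ± 0.09, edgeR adjusted p = 0.00311), and Cacna1e at 824, 656 and 917 CPM in trained libraries labelled shH2afy against 1439, 1470 and 1193 CPM in trained shScr libraries (-0.78 ± 0.15, edgeR adjusted p = 0.0075). Cacna1b and Cacna1d also fell in trained mice, with log2 fold changes of -0.44 and -0.37. This difference from the depletion experiment was not tested, and library chemistry, counting, depth and threshold all differed between the 2. Among T-type pores, Cacna1i stood at 37.1, 71.3 and 36.8 CPM in trained libraries labelled shH2afy against 119, 80.9 and 130 CPM in trained shScr libraries (-1.18 ± 0.31, edgeR adjusted p = 0.0217). In untrained mice it stood at 62.0, 60.7 and 30.4 CPM in libraries labelled shH2afy against 100, 111 and 110 CPM in shScr libraries (-1.07 ± 0.25, edgeR adjusted p = 0.0111), without overlap in either. Cacna1g stood at 54.1, 80.3 and 62.6 CPM in trained libraries labelled shH2afy against 72.9, 45.2 and 78.8 CPM in trained shScr libraries (0.00 ± 0.24), and Cacna1h and Cacna1c did not pass in either arm.

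Among the auxiliary subunits that fell in both arms were Cacnb2, Cacna2d3 and Scn3b. Cacnb2 stood at 575, 404 and 656 CPM in trained libraries labelled shH2afy against 1272, 1321 and 1293 CPM in trained shScr libraries (-1.25 ± 0.18, edgeR adjusted p = 0.00268). Cacna2d3 stood at 542, 620 and 583 CPM in trained libraries labelled shH2afy against 1173, 953 and 1154 CPM in trained shScr libraries (-0.91 ± 0.11, edgeR adjusted p = 0.00166). Scn3b stood at 118, 73.6 and 141 CPM in trained libraries labelled shH2afy against 234, 250 and 220 CPM in trained shScr libraries (-1.09 ± 0.23, edgeR adjusted p = 0.00958). In trained mice Scn4b (-1.21) and Cacng8 (-1.08) fell about as far on the log2 scale as Scn3b, and both also fell in untrained mice. Scn2b, Cacnb1 and Cacng3 fell in both arms too, with log2 fold changes between -0.87 and -0.56. Cacnb4, which fell in the depletion experiment, did not pass (-0.31 ± 0.20 trained, -0.44 ± 0.17 untrained). The difference between the arms did not pass for Scn3a in the test of the interaction. Cacng4 and Cacng7 had log2 fold changes between -0.16 and 0.10 and passed in neither arm.

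At the low end of expression 1 gene rose. The skeletal muscle pore Cacna1s, the only channel gene called higher, had 129, 111 and 115 counts in untrained libraries labelled shH2afy against 24, 38 and 30 counts in untrained shScr libraries (1.74 ± 0.23, edgeR adjusted p = 0.000973). In trained mice its 121, 120 and 130 counts stood against 17, 88 and 31 counts in shScr libraries, without overlap but not past the threshold (edgeR adjusted p = 0.0835). The untrained values of Cacna1s amount to 1.16 to 1.42 CPM in libraries labelled shH2afy against 0.289 to 0.478 CPM in shScr libraries.

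**Figure D3:**
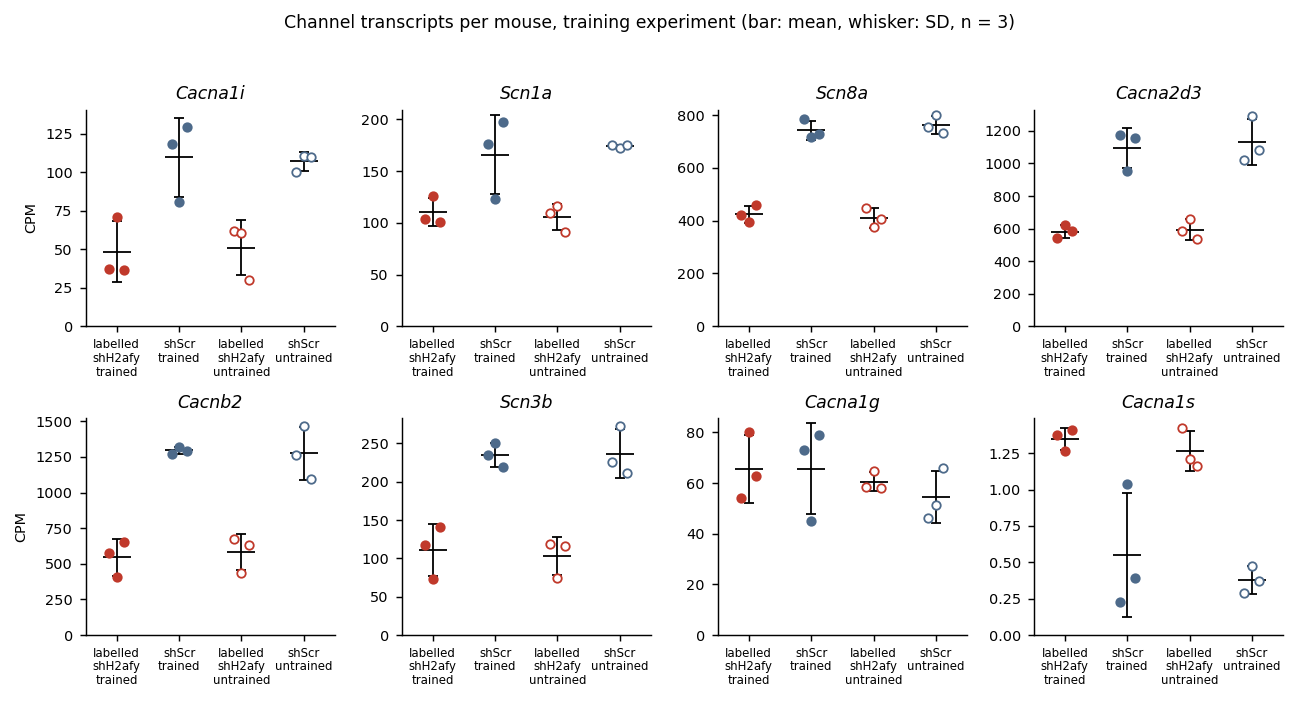
CPM of 8 channel genes in each mouse of the training experiment, with libraries labelled shH2afy left of shScr, trained (filled) before untrained (open), bars for means and whiskers for SD (n = 3 each). Scn8a lies at 377 to 458 CPM in all 6 libraries labelled shH2afy and at 719 to 799 CPM in all 6 shScr libraries, while Cacna1g overlaps in all 4 groups.

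The same libraries differed in cell type markers here too. Over all genes tested, 24.2% (trained) and 26.2% (untrained) were called higher, and 21.7% lower in each arm. Microglia and macrophage markers summed to 1374 to 1725 CPM in trained libraries labelled shH2afy against 247 to 491 CPM in trained shScr libraries, and to 1217 to 1999 CPM in untrained libraries labelled shH2afy against 267 to 326 CPM in untrained shScr libraries, with 12 of 12 called higher in each. Neuronal markers summed to 4512 to 5009 CPM in trained libraries labelled shH2afy against 6837 to 8281 CPM in trained shScr libraries, and to 4514 to 5030 CPM in untrained libraries labelled shH2afy against 7293 to 7447 CPM in untrained shScr libraries, with 9 and 10 of 12 called lower. Median log2 fold changes of -0.63 in trained and -0.58 in untrained mice for the neuronal markers stood beside -0.57 and -0.49 for the channel genes. The part of this in the channel results was not tested.

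Across the 2 experiments, which used different mice, the direction of the channel genes was shared about as often as that of all genes. Of 33 genes tested both in the depletion experiment and in untrained mice of the training experiment, 26 (78.8%) had log2 fold changes of the same sign, against 79.5% of 14100 genes matched by symbol, and 25 (75.8%) were negative in both, against 39.7% of all. Over the 33 genes Pearson's r was 0.51 and Spearman's rho 0.58, given as a description, since genes share libraries and are not independent. The 6 genes called lower in both were Cacna1i, Cacna2d3, Cacnb1, Cacng3, Scn1a and Scn2b, which is 18.2% of the 33 against 3.39% of all genes. In opposite directions 0 were called, against 0.0142% of all. These 6 were also called lower in trained mice. Counting all 3 comparisons, 6 genes were called lower in 3, 15 in 2, 4 in 1 and 14 in 0, while of all genes tested in the 3 comparisons 3.04% were called lower in 3 and 16.3% in 2. Of the pores, Scn1a and Cacna1i were called in 3, and Scn2a, Scn8a, Cacna1a, Cacna1b, Cacna1d and Cacna1e were among those called in 2.

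**Figure D4:**
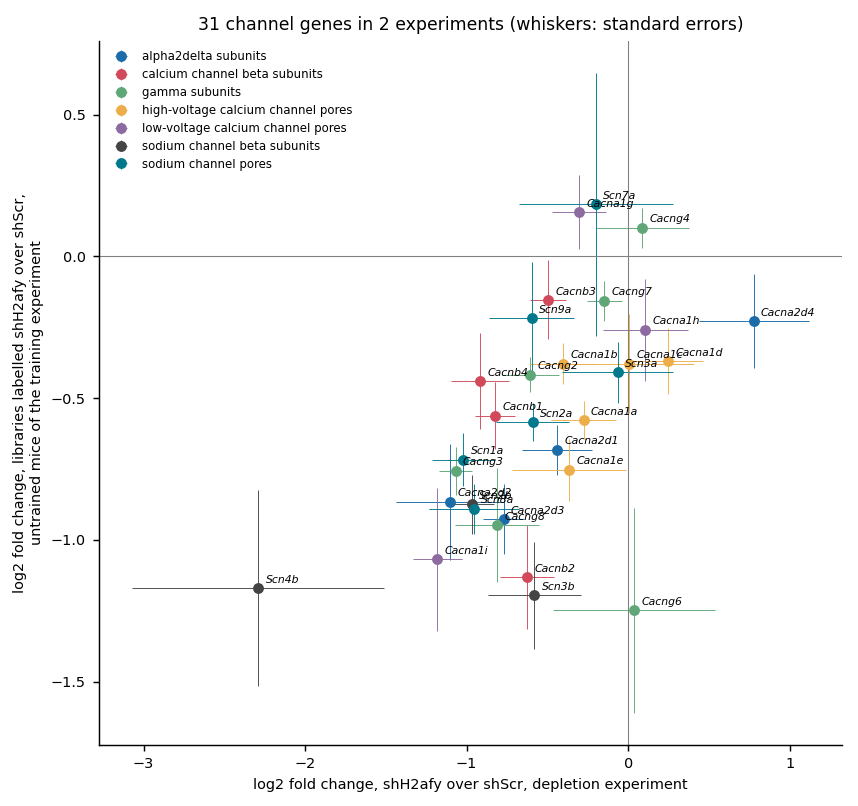
Log2 fold change, shH2afy over shScr, of 31 channel genes in the depletion experiment (horizontal) and in untrained mice of the training experiment (vertical, libraries labelled shH2afy), with standard errors as whiskers and colours for the kind of subunit. Of the 31 points 23 lie in the lower left, among them Cacna1i, Scn1a, Scn2b and Cacng3.

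Fear conditioning itself moved no channel gene past the threshold 1 h after training. Among shScr mice 0 of 36 tested genes were called by edgeR, as were 0 of all 15424 genes (0%). Of the 36, 2 reached an unadjusted p under 0.05. With DESeq2 2 passed, Scn9a (-0.53) among them, against 1.75% of all genes. Among libraries labelled shH2afy 0 of 36 were called (0% of all genes), 0 at an unadjusted p under 0.05 and 0 by DESeq2 (0.222% of all genes). The interaction of training and virus gave 0 of 37 (0% of all genes) by edgeR and 0 by DESeq2, with 1 gene at an unadjusted p under 0.05. In intact mice, with 2 trained and 3 untrained, 0 of 34 were called by edgeR or DESeq2 (which called 0.0959% and 3.26% of all genes) and 6 had an unadjusted p under 0.05. The smallest adjusted p there was that of Cacnb4, at 233 and 249 CPM in trained against 339, 268 and 347 CPM in untrained mice (-0.40 ± 0.11, edgeR adjusted p = 0.131), without overlap. Scn1a stood at 165 and 171 CPM in trained against 207, 178 and 223 CPM in untrained mice (-0.27 ± 0.09, edgeR adjusted p = 0.183). Cacna1i stood at 122 and 123 CPM in trained against 119, 119 and 121 CPM in untrained mice (0.03 ± 0.04). With these numbers of mice even differences above their standard errors, as in Cacnb4 and Scn1a, did not pass. A change of that size could thus go undetected.

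Genes that act with the channels were taken from lists of known partners. Of 18 partners of sodium channels and proteins of the axon initial segment, 1 fell in shH2afy mice of the depletion experiment: Fgf12, an intracellular modulator of inactivation (-0.90 ± 0.17, edgeR adjusted p = 0.00687). Ank3, the ankyrin that anchors sodium channels at the initial segment, had -0.85 ± 0.32 (edgeR adjusted p = 0.0794). Over all genes 4.47% were lower there. In the training experiment 13 of the 18 were lower and 1 higher in each arm, where 21.7% of all genes were lower in each and 26.2% (untrained) and 24.2% (trained) higher. Ank3 was among the lower (-0.53 ± 0.11, edgeR adjusted p = 0.00635, untrained), and the 1 higher was Camk2d, a calcium-dependent kinase (1.14 ± 0.18, edgeR adjusted p = 0.00187, untrained). Of 28 tested partners of calcium channels and proteins of calcium release, 7 fell and 2 rose in the depletion experiment, where 4.47% of all genes were lower and 12.6% higher. The largest falls were in Akap5, the scaffold of L-type channels (-1.47 ± 0.21, edgeR adjusted p = 0.00232), and Rims2, which tethers channels at release sites (-1.09 ± 0.13, edgeR adjusted p = 0.00119). The 2 that rose, Rrad (3.11 ± 0.42, edgeR adjusted p = 0.00165) and Gem (2.43 ± 0.47, edgeR adjusted p = 0.00705), encode small GTPases that inhibit high-voltage calcium channels by binding their beta subunits. Rrad averaged 6.19 CPM in shH2afy mice against 0.772 CPM in shScr mice, and Gem averaged 8.83 CPM in shH2afy mice against 1.69 CPM in shScr mice. Both were also called higher in libraries labelled shH2afy, Rrad at 2.10 ± 0.19 and Gem at 1.70 ± 0.14 on the log2 scale in untrained mice. Of 14 AMPA receptor subunits and auxiliaries, 2 fell in the depletion experiment, Gria4 (-0.80 ± 0.12, edgeR adjusted p = 0.00255) and Cpt1c (-1.01 ± 0.17, edgeR adjusted p = 0.00414), and 11 in trained and 10 in untrained mice of the training experiment, beside the same shares of all genes. In shH2afy2 mice edgeR called 0 genes of these 3 lists, with 3, 4 and 4 at an unadjusted p under 0.05.

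Over the 9 libraries of the depletion experiment, the genes whose log2 CPM followed Scn1a most closely among 16664 genes were Sept7, Epb41l3, Serpini1, R3hdm2 and Ank1, with Pearson's r between 0.963 and 0.967. These libraries share their group differences, so the values are a description.

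ChIP for both histones, carried out on area CA1 of mice without virus, showed a split among the channel genes between covered and bare ones. The deposited domains are broad stretches in which a ChIP library exceeded its input, and the measure is the percentage of each gene body, from start to end, that lies within them. For mH2A1 in the 6 h sets (5 libraries each), the median over the 39 genes was 7.09 to 10.2% by library in trained mice and 6.76 to 14.9% in untrained mice, while the median over all protein-coding genes was 0. For mH2A2 in the 1 h sets (3 libraries each) it was 39.4 to 66.0% in trained mice against 26.0 to 74.3% in untrained mice, with 3.23 to 11.2% and 0 to 13.9% over all protein-coding genes. The channel genes are long, with a median span of 110.5 kb against 17.4 kb for all 21755 protein-coding genes. The part of length in their coverage was not tested.

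Coverage differed between sodium channel pores on different chromosomes. On chromosome 2, at 65457118 to 66784914 (mm10), Scn3a, Scn2a, Scn1a, Scn9a and Scn7a lie side by side over 1328 kb, and mH2A1 domains covered 0 to 3.74% of each in the 6 h trained set and 0 to 0.90% in the 6 h untrained set. On chromosome 9, Scn10a was covered over 96.8% in trained and 96.8% in untrained mice, and Scn11a over 97.2% in trained and 98.2% in untrained mice. The muscle pores Scn4a and Cacna1s were covered over 100 and 99.6% in trained mice. For mH2A2 in the 1 h untrained set the contrast was similar, with 0 to 4.52% over the chromosome 2 genes, 82.5% over Scn10a and 81.8% over Scn11a.

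Genes with little RNA in CA1 were the more covered by mH2A1 in the 6 h sets. The 11 genes under 1 CPM per kilobase in intact untrained mice had a median mH2A1 coverage of 94.0% in the 6 h trained and 93.2% in the 6 h untrained set, against 0.90 and 0.74% for the 21 genes at 10 CPM per kilobase or more. The same bins over all protein-coding genes gave 20.0 and 22.4% under 1 CPM per kilobase, and 0 in both sets at 10 or more. Over protein-coding genes of 100 kb or more they gave 15.8 and 15.7% under 1 CPM per kilobase, and again 0 in both sets at 10 or more. Across the 39 genes Spearman's rho between level and coverage was -0.60 and -0.54, against -0.40 and -0.39 over all protein-coding genes, as a description over genes of the same libraries. In the 1 h sets rho for mH2A1 was -0.69 in trained and -0.66 in untrained mice (-0.36 and -0.45 over all genes), and in the 30 min sets -0.31 and -0.34 (-0.33 and -0.16 over all). For mH2A2 rho over the 39 genes was -0.09 in trained and -0.25 in untrained mice of the 1 h sets (0.07 and 0.01 over all), and 0.12 and 0.01 in the 30 min sets (-0.07 and 0.01 over all). In the 30 min trained set mH2A2 covered a median of 13.5% of the genes under 1 CPM per kilobase against 24.7% of those at 10 or more. The low genes Scn7a, Scn9a and Cacna1f were bare all the same, at 0.90, 0 and 0% in the 6 h untrained set.

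Several expressed genes were covered, the T-type pores among them. In the 6 h sets Cacna1g was covered over 77.3% in trained and 87.4% in untrained mice, Cacna1h over 68.6% in trained and 72.6% in untrained mice, and Cacna1i over 60.6% in trained and 82.0% in untrained mice. By library, Cacna1i ranged from 51.2 to 68.2% in trained and from 63.5 to 95.1% in untrained mice, which overlapped. Cacng4, Scn4b and Cacna2d2 were covered over 91.7, 94.6 and 97.0% in trained mice. Of the 6 genes lower in all 3 comparisons with shScr, Cacna1i was thus covered, Cacng3 was covered over 8.94% in trained and 25.3% in untrained mice, and Scn2b over 13.6% in trained and 40.2% in untrained mice, with untrained libraries from 0 to 100%. Scn1a and Cacnb1 had 0% in both sets, and Cacna2d3 had 0.90% in trained and 0.74% in untrained mice. Domains of mH2A2 in the 1 h untrained set covered 80.2% of Cacna1i, 65.4% of Cacnb1, 62.8% of Scn2b, 27.3% of Cacng3, 21.2% of Cacna2d3 and 0.59% of Scn1a.

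**Figure D5:**
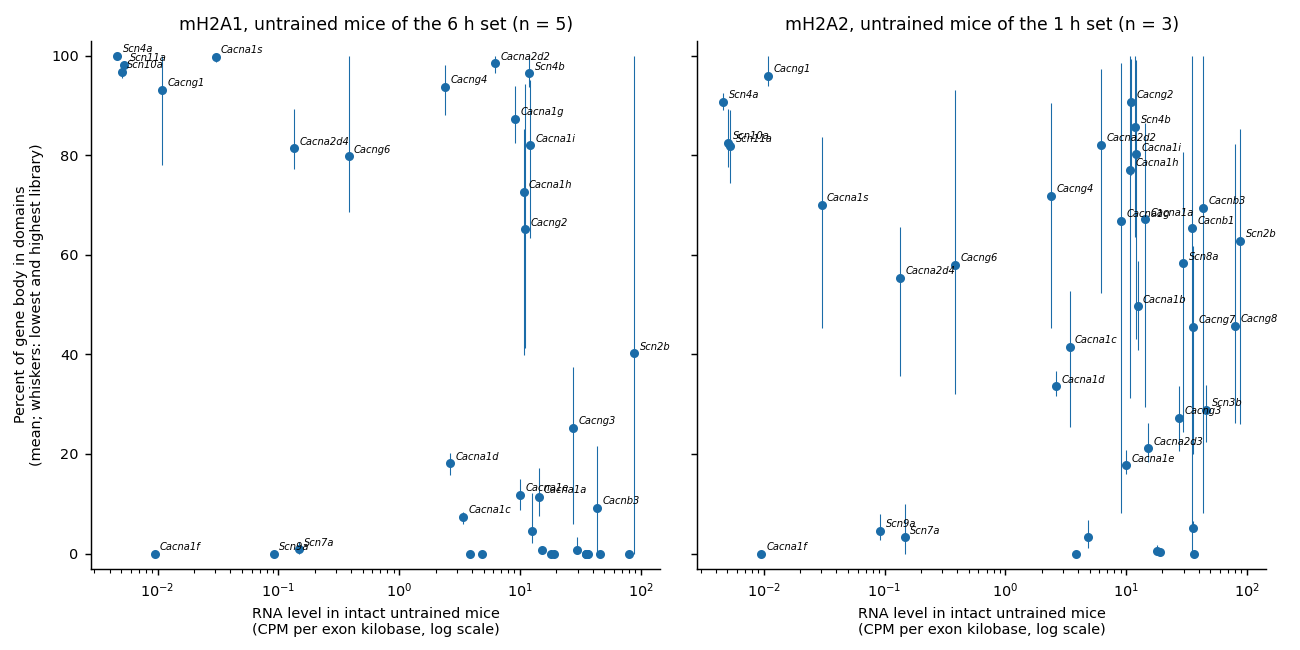
Percentage of 37 channel genes within mH2A1 domains (left, 6 h set, untrained, n = 5) or mH2A2 domains (right, 1 h set, untrained, n = 3) against their RNA level in intact untrained mice (CPM per exon kilobase, log scale), with points for means and whiskers for the lowest and highest library; expressed genes under 6% are not named. In the left panel the genes under 1 CPM per kilobase lie near 80 to 100%, except Scn7a, Scn9a and Cacna1f near 0.

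At 30 min the coverage of the channel genes was lower in trained than in untrained mice, and so was the extent of all domains. The median over the 39 genes was 4.77 to 5.77% for mH2A1 in trained mice (2 libraries) against 14.6 to 27.6% in untrained mice (3 libraries), and 4.40 to 26.9% in trained against 28.0 to 54.9% in untrained mice for mH2A2. The genome covered by domains was 325 to 334 Mb in trained against 369 to 416 Mb in untrained mice for mH2A1, and 226 to 324 Mb in trained against 327 to 407 Mb in untrained mice for mH2A2. In the 1 h sets mH2A1 covered a median of 5.55 to 7.26% of the channel genes in trained against 5.02 to 6.72% in untrained mice. No test was made, since domains were called in each library separately. The mH2A1 antibody at 1 h and 6 h was not the one used at 30 min, so the sets differ in antibody as well as time. The 1 h untrained libraries titled macroH2A1 carry an antibody label that names macroH2A2, and their values are given under their title.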

How the data were processed

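RNA libraries and ChIP samples of area CA1 were grouped by their labels. The authors trimmed and aligned reads to mm10 with STAR, and deposited whole-number counts per gene from featureCounts, with introns included in the training experiment. ChIP reads were aligned with Bowtie2, and the authors deposited SICER-type domains per library against input, each with a log2 enrichment and a p-value adjusted to a false discovery rate. Counting by strand was not given in the sources used here, and close paralogs among these channels may share reads.

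From the counts, edgeR 4.0.16 (R 4.3.3) gave TMM-scaled CPM and quasi-likelihood tests over all genes passing filterByExpr (least count 10, least total 15), fitted on the groups compared, with Benjamini-Hochberg adjustment over all genes. The threshold was 0.01 in the depletion and intact experiments and 0.05 in the training experiment. Scripts were tested on simulated data. Alternatives were DESeq2 1.42.0, RLE scaling, no filter, all libraries in 1 fit, an added fold of 2 or 1.2, a block on replicate number and each mouse left out. Domain coverage was computed per gene body (GENCODE M21) from all deposited domains, with Python 3.11.15 and pandas 2.3.3.

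Every channel gene could be named, except that some genes and sequences are not reported here; counts, medians and shares over the members include them. Values per mouse were given for up to 6 called genes per direction, for a fixed list of 8 pores and for Cacna1i, and partner and marker lists were named by smallest adjusted p. The members and lists were chosen with earlier results of these data known. Replicate numbers were checked as pairs by correlating deviations from group means. Only trained against untrained shScr mice had every same-numbered correlation above 0.1 (0.168, 0.191 and 0.25), and the block changed no call there. With 3 mice a group, and 2 in the intact trained group, p-values set group differences against the spread between mice as edgeR estimates it. Depth limits only the genes under about 1 CPM. The log2 and p columns of the domains served no test. Sequences are from RefSeq (GRCm38.p6).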

Additional observations from a re-analysis of the deposited data

Results flagged for a closer look

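In 3 of 21 groups of domain coverage tested, 1 library met Dixon's criterion for a value apart from the others of its group. The usual rate by chance, about 1 in 20 groups, does not apply here. In all 3 the other libraries were at 0, so any value above 0 meets the criterion. Domains of mH2A1 covered 0.0244% of Scn3a in replicate 2 of the 6 h trained set and 0 in the other 4 libraries. They covered 2.24% of Scn8a in replicate 1 of the 6 h trained set and 0 in the others, and 3.41% of Scn8a in replicate 3 of the 6 h untrained set and 0 in the others. All 3 are small stretches of genes that were otherwise bare.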

How the results depend on the processing

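Among 3578 combinations of a channel gene, a comparison and an alternative setting, 3397 kept their side of the threshold, 74 passed it only in the alternative and 107 lost it. In 0 the direction reversed with a pass in either setting. Where neither setting passed, a change of sign was not counted. Many of the combinations came from comparisons with 0 calls in the main setting, where no call could be lost. For shH2afy against shScr in the depletion experiment, the 8 called genes became 14 with DESeq2, 14 with no filter on low counts, 3 with the replicate block and 4 with the fold threshold added, and ranged from 2 to 12 with 1 mouse left out. For shH2afy2 against shScr the count of 0 became 2 with DESeq2 and 4 with no filter. For shH2afy against shH2afy2 the 8 became 15 with DESeq2, 16 with no filter, 11 with the replicate block and 3 with the fold threshold, and ranged from 0 to 13 with 1 mouse left out. In the training experiment the 23 of untrained mice were 22 with the block and 20 to 24 with 1 mouse left out, while the 22 of trained mice were 13 with the replicate block and 15 to 24 with 1 mouse left out. The effect of training in shScr mice gave 2 with DESeq2, and that in intact mice ranged from 0 to 3 with 1 mouse left out, the 3 without untrained replicate 2. Outside the shScr training comparison, not every same-numbered correlation was above 0.1, which neither shows nor excludes pairing. These correlations were -0.209, 0.531 and 0.453 for shH2afy against shH2afy2, and -0.150, 0.509 and 0.300 for trained against untrained libraries labelled shH2afy. The cause of the differences between counts was not tested, and another scaling moved no median over all genes by more than 0.1.

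The median coverage of channel genes, averaged over libraries, depended on the window. Keeping only domains with a log2 above 1 gave 0 in place of 6.40 (mH2A1, 1 h trained), 5.87 (mH2A1, 1 h untrained), 56.8 (mH2A2, 1 h untrained), 5.27 (mH2A1, 30 min trained), 20.1 (mH2A1, 30 min untrained), 40.1 (mH2A2, 30 min untrained), 15.7 (mH2A2, 30 min trained), 8.44 (mH2A1, 6 h trained) and 9.95% (mH2A1, 6 h untrained), and 0.556 in place of 56.5% (mH2A2, 1 h trained). Most domains have a lower enrichment than this, with median log2 per library between 0.33 and 0.73. Over the 2 kb upstream of the start the mH2A1 values were 24.3 (1 h trained), 0 (1 h untrained), 0 (30 min trained), 8.12 (30 min untrained), 28.3 (6 h trained) and 31.1% (6 h untrained).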

Other observations

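The other cell type lists moved as follows in shH2afy mice of the depletion experiment, given as values. Over all genes tested there, edgeR called 4.47% lower and 12.6% higher. Markers of astrocytes summed to 7394 to 7581 CPM in shH2afy mice against 4461 to 5467 CPM in shScr mice, with 3 of 9 called higher and 1 lower. Markers of CA1 pyramidal neurons summed to 577 to 836 CPM in shH2afy mice against 1149 to 2711 CPM in shScr mice, with 2 of 10 called lower by edgeR. Markers of oligodendrocytes, dentate granule neurons and CA2 and CA3 pyramidal neurons gave 0 of 8 called in each list by edgeR, with 3, 0 and 2 at an unadjusted p under 0.05. Oligodendrocyte precursor markers summed to 355 to 447 CPM in shH2afy mice against 253 to 308 CPM in shScr mice. The summed levels of endothelium and mural cells, thalamic neurons and choroid plexus overlapped between shH2afy and shScr mice.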
